A study of Mus musculus with 151 samples.

Results

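*Adam11*, its relatives *Adam22* and *Adam23*, and the ligand genes *Lgi1*, *Lgi2*, *Lgi3* and *Lgi4* were followed in single hair cells of the mouse cochlea. These 7 genes are 7 of the 55291 rows of the count table. *Adam11* was chosen because its counts were lost in inner hair cells (IHCs) between postnatal day 14 (P14) and postnatal day 30 (P30), and the other 6 genes were taken by name as its relatives and their ligands. The difference in *Adam11* between those ages is therefore a description. The groups were 55 P14_WT IHCs and 50 P30_WT IHCs from vGlut3-P2A-iCreER/+; Ai9/+ mice, and 46 P14_iOHCs from vGlut3-P2A-iCreER/+; Tbx2 flox/-; Ai9/+ mice. P14_iOHCs (induced OHCs) are IHC-derived cells that had turned towards outer hair cells (OHCs) after *Tbx2*, a T-box transcription factor gene needed for IHC fate, was deleted.

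All mice were on a C57BL/6 background, and all 3 groups carried the Cre knock-in at the vGlut3 (*Slc17a8*) locus and the Ai9 reporter. Tamoxifen given in the first postnatal days activated the Cre. Cells were picked by hand for Tdtomato fluorescence, and P14_iOHCs also for their smaller size, so cell size was part of their selection. Each library is 1 cell, and the number of mice behind a group is not given in the sources used here. Each group is therefore 1 sample of cells, no test between groups was made, and every SD below is the spread between cells.

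ADAM proteins are transmembrane proteins with a disintegrin domain and a metalloprotease domain. Most of them cut the outer parts of other membrane proteins, but ADAM11, ADAM22 and ADAM23 lack the residues that bind the catalytic zinc, and they act instead as receptors in neurons. Their ligands are the LGI proteins, secreted proteins built of leucine-rich repeats and EAR repeats. LGI1 bound to ADAM22 and ADAM23 bridges brain synapses, and LGI1 loss causes epilepsy. LGI4 bound to ADAM22 serves myelination in peripheral nerves, and ADAM11 places Kv1 potassium channels at the terminals of cerebellar basket cells.

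The coding sequences of the 3 receptor genes lacked the zinc-binding motif, as did those of 10 other ADAM genes. In-frame search of the GENCODE M21 coding sequences found the zinc-binding metalloprotease motif in 20 of the 30 other ADAM genes that could be matched, and in none of *Adam11*, *Adam22* and *Adam23*. The 27 bases at that place are shown for them beside *Adam9*, a catalytically active relative, read 5′ to 3′ on the coding strand of GRCm38. Capitals mark the codons aligned to the 2 histidines and the glutamate that begin the motif in *Adam9*.
*Adam9*, exonic, chr8:24990332-24990358, minus strand: CATGAAttggggCATaaccttggaatg
*Adam11*, exonic, chr11:102773613-102773639, plus strand: CAGACGctagggCAGaacttgggcatg
*Adam22*, exonic, chr5:8143070-8143096, minus strand: CAGTCActagccCACaatgtcggtata
*Adam23*, exonic, chr1:63547763-63547789, plus strand: CAGAGCctggctCAAaaccttggaatc
Of the 3 marked residues, *Adam11* and *Adam23* kept 0 and *Adam22* kept 1. The encoded proteins were close relatives along their aligned length, with 56.7% identity between *Adam11* and *Adam22*, 54.7% between *Adam11* and *Adam23* and 52.2% between *Adam22* and *Adam23*.

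The cells were sequenced deeply, but unevenly. Total counts ran from 4326416 to 25035444 per cell and fell into a lower set of 51 cells, up to 10267217 counts, and an upper set of 100 cells, from 11814928 counts. The lower set was cells 1 to 16 of the P14_WT IHCs, cells 1 to 23 of the P30_WT IHCs and 12 P14_iOHCs, and the labels do not say what divided the sets. Values within each set are therefore given beside the pooled ones for the ADAM members and for other ADAM and partner genes past 4-fold. Levels are CPM, a cell's count of a gene over its total count times 1000000, and 3 counts corresponded to between 0.120 and 0.693 CPM, depending on the cell. Reads carry no molecular identifiers, so all intervals cover counting error only.

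Identity markers followed the labels. The OHC motor protein gene *Slc26a5* was at 1146 ± 685 CPM (SD, n = 46 cells) in P14_iOHCs with counts in 46 of 46 cells, and at 0.146 ± 0.757 CPM (SD, n = 55 cells) in P14_WT IHCs. *Tbx2*, the deleted gene, was at 260 ± 127 CPM (SD, n = 55 cells) in P14_WT IHCs, 193 ± 103 CPM (SD, n = 50 cells) in P30_WT IHCs and 69.3 ± 87.4 CPM (SD, n = 46 cells) in P14_iOHCs. Counts per gene do not show whether a cell lost the floxed exon, and the other *Tbx2* allele of the P14_iOHC mice was a germ-line deletion. In 1 P14_iOHC, cell 1, the summed CPM of 5 IHC markers was 21157, inside the range of 12813 to 28659 CPM in P14_WT IHCs. That cell had 799 CPM of *Slc26a5* and no *Adam11* count. Supporting-cell markers were present in all groups, with medians of summed CPM of 5428, 4716 and 5711 in P14_WT IHCs, P30_WT IHCs and P14_iOHCs. Their highest values were 8977, 8642 and 19698 CPM, in the same order. Glia markers had medians of 0, 0 and 42.1 CPM, in the same order, and highest values of 77.2, 111 and 354 CPM. Of the 8 glia markers, 1, 3 and 5 averaged 1 CPM or more in these groups, with *Prx* among those at 0 in P14_WT IHCs and *Mag* at 0 in P30_WT IHCs. Of the 15 supporting-cell markers, 11 averaged 1 CPM or more in each group, and *Prox1* was at 0 in both P14 groups.

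*Adam11* (chr11:102761439-102780262, plus strand of GRCm38) had 100 reads or more in 35 of 55 P14_WT IHCs and at most 6 reads in any P30_WT IHC. In P14_WT IHCs it ran from 0 to 361 CPM with a median of 36.5, and 44 of 55 cells (80.0%, exact 95% interval 67.0% to 89.6%) had a count. In P30_WT IHCs the median was 0 and the highest cell was at 0.584 CPM. Counts were present in 5 of 50 P30_WT IHCs (10.0%, exact 95% interval 3.33% to 21.8%), and they were 5, 6, 4, 1 and 1 reads. Thus 39 of 55 P14_WT IHCs lay above every P30_WT IHC, and 11 P14_WT IHCs had no count at all. When every cell was thinned to 4326416 counts, the lowest total, 41 P14_WT IHCs and 4 P30_WT IHCs kept a count, and so did 17 P14_iOHCs.

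The mean level of *Adam11* was 65.8 ± 87.0 CPM (SD, n = 55 cells) in P14_WT IHCs and 0.0276 ± 0.0987 CPM (SD, n = 50 cells) in P30_WT IHCs. All 50 cells at P30 together held 17 *Adam11* reads (exact Poisson 95% interval 9.90 to 27.2), against 40200 in the 55 cells at P14. The fold was 2389 between the means, a log2 fold of -11.22. Because the gene passed the filter on low counts only through the P14 cells, the size of this fold is set mainly by the few reads at P30. A gene passed the filter when 10 or more of the compared cells held 5 counts or more of it, as 12946 genes did.

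*Adam11* was the 1 member lower past 4-fold at P30 among the 3 that passed the filter, where 3.06% of all tested genes were lower and 2.26% were higher past 4-fold. The median log2 fold of the tested genes was -0.03. *Adam11* was picked on this contrast, so its count says nothing further about the members. The difference was present in both sets of totals, and in the lower set *Adam11* averaged 152 ± 109 CPM (SD, n = 16 cells) at P14 and 0.0372 CPM at P30. In the upper set the means were 30.5 ± 40.7 CPM (SD, n = 39 cells) and 0.0193 CPM.

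**Figure D1:**
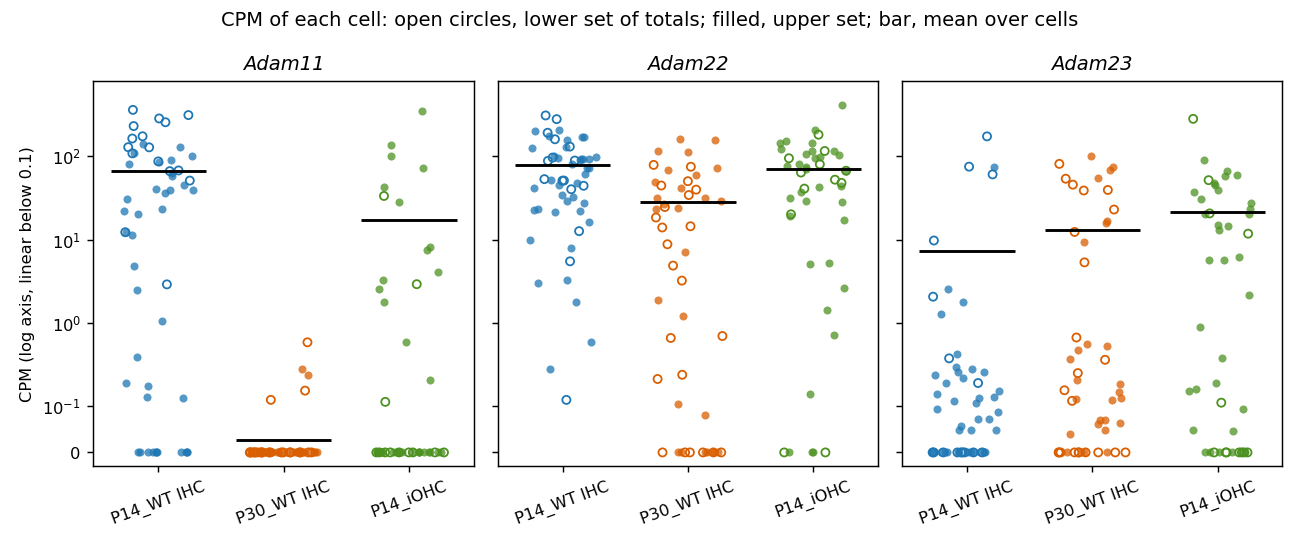
CPM of *Adam11*, *Adam22* and *Adam23* in every cell of the 3 groups (vertical axis logarithmic above 0.1 CPM and linear below it), with open circles for the lower set of totals, filled circles for the upper set and a bar at the mean over cells. No P30_WT IHC is above 0.584 CPM for *Adam11*, whereas for *Adam22* and *Adam23* cells of all 3 groups reach 100 CPM or more.

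P14_WT IHCs themselves differed in *Adam11* with the set of totals. All 16 cells of the lower set had a count, and 15 of them were at 10 CPM or more. In the upper set 28 of 39 cells had a count and 20 were at 10 CPM or more. The 5 highest P14_WT IHCs, at 361, 312, 284, 256 and 230 CPM, all belonged to the lower set, and 7 cells of that set were above every cell of the upper set. The mean was 4.99-fold higher in the lower set, and 0.940% of 11171 genes tested between the sets differed as much in that direction. Past 4-fold, 1.49% of those genes were higher and 4.23% were lower in the lower set. Supporting-cell markers had medians of 4772 and 5692 CPM in the lower and the upper set of P14_WT IHCs, and their part in the difference was not tested. The sets follow the cell numbers, and how the cells of each were handled cannot be told apart from the difference in *Adam11*.

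P14_iOHCs were lower in *Adam11* than P14_WT IHCs in most cells, with a few cells at IHC levels. Counts were present in 17 of 46 cells (37.0%, exact 95% interval 23.2% to 52.5%), the median was 0 and the highest cell was at 346 CPM. Of the 46 cells, 7 were at 10 CPM or more, against 35 of 55 P14_WT IHCs. The groups overlapped, since 5 P14_iOHCs lay above the P14_WT IHC median. Of the same 46 cells, 15 lay above every P30_WT IHC.

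The mean level of *Adam11* in P14_iOHCs was 17.2 ± 56.5 CPM (SD, n = 46 cells), a 3.83-fold difference from P14_WT IHCs (log2 fold -1.94) that fell short of 4-fold. One cell, number 35, held 7939 of the 14299 *Adam11* reads, or 55.5%. Without it the mean of the other 45 P14_iOHCs was 9.87 ± 27.5 CPM (SD), which was 6.67-fold lower than in P14_WT IHCs (log2 fold -2.74). Cell 35 carried OHC markers, with *Slc26a5* at 1789 CPM, rank 9 of the 46 cells, and its *Otof*, the gene of the IHC synaptic protein otoferlin, was at 272 CPM, rank 21. Its other OHC genes *Ocm* and *Ikzf2* were at ranks 25 and 38, the latter at 144 CPM, and *Tbx2* was at 102 CPM, rank 10.

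The size of the P14_iOHC difference depended on the set of totals. In the lower set *Adam11* was at 3.03 ± 9.59 CPM (SD, n = 12 cells) in P14_iOHCs, 50.1-fold below the P14_WT IHCs of that set (log2 fold -5.65). That mean rested on cell 5, at 33.4 CPM, and without it was 0.275 CPM (log2 fold -9.11). In the upper set it was at 22.2 ± 65.0 CPM (SD, n = 34 cells), 1.38-fold below (log2 fold -0.46), or 2.47-fold below without cell 35. The direction was the same in both sets, and the share of cells with a count was lower in P14_iOHCs in each, at 25.0% against 100% and at 41.2% against 71.8%. Without the cells high in glia markers the log2 fold was -2.72, with 18 P14_iOHCs and 51 P14_WT IHCs left, and without the cells high in supporting-cell markers it was -1.43, with 27 and 42 left. The P14_WT IHCs here are the same cells that were compared with P30_WT IHCs, so the comparisons are not independent.

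**Figure D2:**
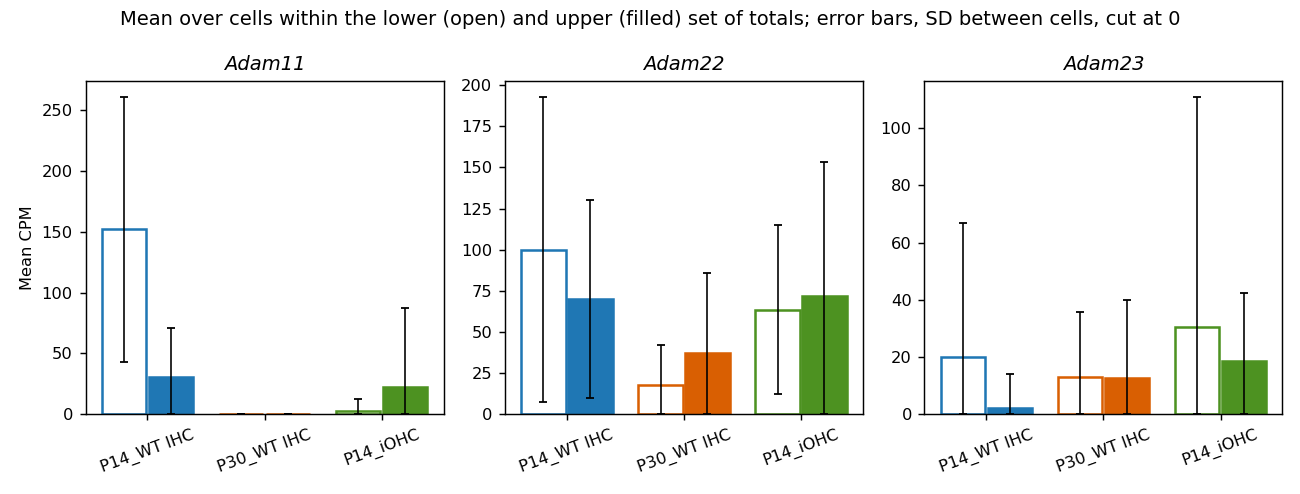
Mean CPM of *Adam11*, *Adam22* and *Adam23* within the lower (open bars) and the upper (filled bars) set of totals in each group, with the SD between cells as error bars cut at 0. *Adam11* is at 152 CPM in the lower and 30.5 CPM in the upper set of P14_WT IHCs, and at or below 0.0372 CPM in both sets of P30_WT IHCs.

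*Adam22* (chr5:8072352-8368160, minus strand), the receptor that LGI1 and LGI4 share, was the member present in most cells. It had counts in 55 of 55 P14_WT IHCs, 37 of 50 P30_WT IHCs and 41 of 46 P14_iOHCs. Levels in P14_WT IHCs ran from 0.119 to 309 CPM with a median of 53.1. P30_WT IHCs ran from 0 to 159 CPM with a median of 11.4, and P14_iOHCs from 0 to 408 CPM with a median of 58.0. The lower level at P30 was a shift of overlapping groups, in which 46 of 55 P14_WT IHCs were above the P30 median and 9 P30_WT IHCs were above the P14 median.

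On average *Adam22* was at 78.7 ± 71.6 CPM (SD, n = 55 cells) in P14_WT IHCs and 28.5 ± 39.9 CPM (SD, n = 50 cells) in P30_WT IHCs. The fold was 2.76 lower (log2 fold -1.47), short of 4-fold. Within the sets of totals it was 5.58-fold lower in the lower set and 1.87-fold lower in the upper set. In P14_iOHCs *Adam22* was at 69.9 ± 74.1 CPM (SD, n = 46 cells), and its log2 fold from P14_WT IHCs was -0.17. That difference was small beside the spread between cells, and within the sets the log2 fold was -0.65 and 0.05. In the same P14_iOHCs *Adam11* had counts in a minority of cells.

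*Adam23* (chr1:63445891-63596276, plus strand), the presynaptic partner of LGI1 in the brain, had counts in 33 of 55 P14_WT IHCs, 36 of 50 P30_WT IHCs and 33 of 46 P14_iOHCs. Of these cells, 5, 13 and 20 held 100 reads or more, so in both groups of IHCs most cells with a count held fewer. When every cell was thinned to the lowest total, 22, 25 and 29 cells kept a count. At 10 CPM or more there were 4 P14_WT IHCs, 13 P30_WT IHCs and 20 P14_iOHCs. The medians were 0.0716, 0.151 and 3.92 CPM and the highest cells were at 173, 101 and 281 CPM, in the same order of groups.

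Mean *Adam23* was 7.36 ± 27.9 CPM (SD, n = 55 cells) in P14_WT IHCs, 12.9 ± 25.1 CPM (SD, n = 50 cells) in P30_WT IHCs and 21.6 ± 45 CPM (SD, n = 46 cells) in P14_iOHCs. These were log2 folds of 0.81 and 1.56 over P14_WT IHCs, both short of 4-fold. Without the cells high in glia markers the second was 0.39, and the part of those markers was not tested. The sets of totals disagreed on the first, which was -0.62 in the lower set and 2.57 in the upper set. Single P14_WT IHCs set these values, since without cell 14, at 173 CPM, the lower-set value was 0.41, and without cell 24, at 74.3 CPM, the upper-set value was 5.73. For P14_iOHCs the log2 fold was 0.60 in the lower set and 3.12 in the upper set. The lower-set value rested on P14_iOHC number 13, at 281 CPM, and was -1.39 without it, or 1.63 without P14_WT IHC number 14. The upper-set value was 6.28 without P14_WT IHC number 24. No member was past 4-fold in P14_iOHCs against P14_WT IHCs, lower or higher, where 5.12% of 13673 tested genes were lower and 8.74% were higher and the median log2 fold was 0.08.

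Per kilobase of exon, with both sets of totals pooled, *Adam11* was the highest member in P14_WT IHCs and fell to the lowest of the 3 receptors at P30. In P14_WT IHCs it was at 11.6 CPM per kilobase, *Adam22* at 5.48 and *Adam23* at 0.411. In P30_WT IHCs *Adam22* was at 1.98 CPM per kilobase, *Adam23* at 0.718 and *Adam11* at 0.00486. In P14_iOHCs *Adam22* was at 4.87, *Adam11* at 3.03 and *Adam23* at 1.21 CPM per kilobase. The gap between neighbours in these orders was smaller than the larger of their SDs between cells, except between *Adam22* and *Adam23* in P14_WT IHCs. Taken on coding length or on CPM alone, *Adam23* stood before *Adam11* in P14_iOHCs, and on CPM alone *Adam22* stood before *Adam11* in P14_WT IHCs. On coding length the lead of *Adam11* in P14_WT IHCs was narrow, at 28.1 against 25.5 CPM per kilobase for *Adam22*. The lead also differed with the set of totals. In P14_WT IHCs *Adam11* and *Adam22* averaged 152 and 100 CPM in the lower set, and 30.5 and 69.9 CPM in the upper set.

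Single cells commonly held at least 1 read of more than 1 receptor gene. All 44 P14_WT IHCs with an *Adam11* count also had an *Adam22* count, as did all 55 cells of that group, and 23 of them had all 3 receptors. Among P14_iOHCs 16 of the 17 cells with *Adam11* had *Adam22*, and 13 had all 3. At P30 only 1 cell had all 3, and 2 of the 50 cells had none. Counts of *Adam22* and *Adam23* together were found in 25 of 50 P30_WT IHCs. These counts include single reads, and of the 33 P14_WT IHCs with an *Adam23* count 18 held 3 reads or more. The levels did not closely follow each other within P14_WT IHCs. There Spearman's rho of CPM was 0.18 between *Adam11* and *Adam22*. It was -0.05 between *Adam11* and *Adam23* and 0.02 between *Adam22* and *Adam23*.

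**Figure D3:**
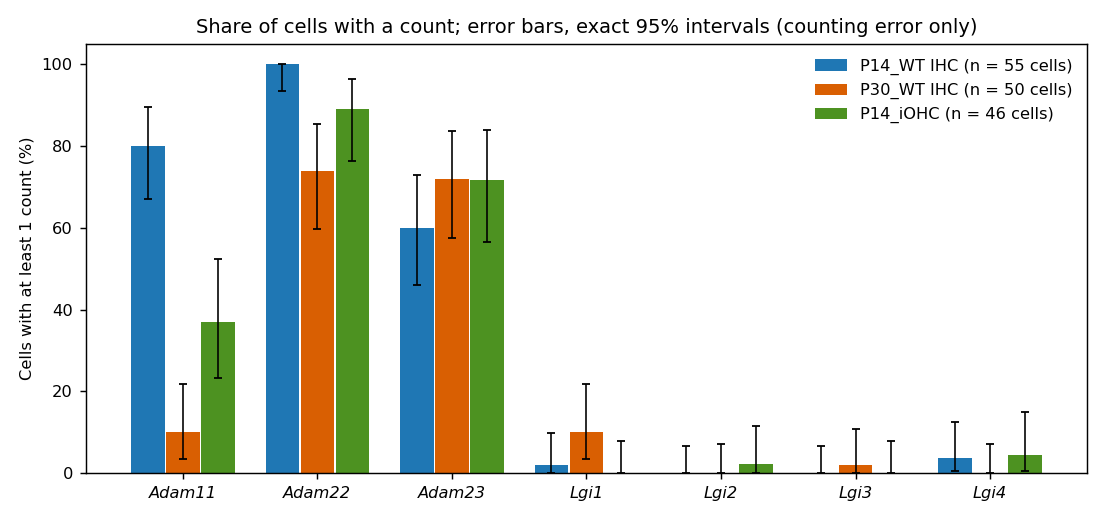
Percent of cells with at least 1 count of each of the 7 genes in the 3 groups, with exact 95% intervals for counting error. *Adam22* is at 100%, 74.0% and 89.1%, *Adam11* at 80.0%, 10.0% and 37.0%, and every LGI gene is at 10.0% or below.

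The ligand genes had reads in few of these cells. Of 151 cells, 12 had a count of any LGI gene, against 66 with *Adam11*, 133 with *Adam22* and 102 with *Adam23*. None of the 4 LGI genes passed the filter on low counts, and no fold is given for them. *Lgi3* (chr14:70530685-70538324, plus strand), an LGI gene expressed in the brain, had 1 read in 1 P30_WT IHC. *Lgi2* (chr5:52533517-52566462, minus strand), a relative of *Lgi1*, had 135 reads (19.6 CPM) in P14_iOHC number 2 and none elsewhere. With 3 cells of the total as the limit that a count of 0 allows, its 0 of 55 P14_WT IHCs allows a share of up to 5.45% and its 0 of 50 P30_WT IHCs up to 6.00%. The exact two-sided 95% intervals in the plot of shares reach 6.49% and 7.11%.

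*Lgi1* (chr19:38264536-38312214, plus strand), the epilepsy gene, had counts in 5 P30_WT IHCs, 1 P14_WT IHC and 0 of 46 P14_iOHCs, which by the same limit of 3 cells allows a share of up to 6.52% (7.71% by the exact interval). The reads lay mostly in P30_WT IHCs number 14, 15 and 16, with 197, 853 and 162 reads, or 24.2, 98.8 and 24.9 CPM. These 3 cells have consecutive numbers and belong to the lower set of totals. Their summed CPM of 8 neuron markers was 381, 536 and 414, at ranks 30, 13 and 27 of the 50 cells, beside a P30 median of 419. Cell 15, with the most *Lgi1* reads, was thus above that median. The glia markers of these 3 cells were at 0, and the part of neuron markers in the *Lgi1* reads was not tested. Cells 6 and 11 of that group had 1 read each, and the P14_WT IHC had 36 reads (2.01 CPM). An antisense gene that shares 532 exonic bases with *Lgi1* had no count in any of these cells. All 6 cells with *Lgi1* reads also had reads of *Adam22*, as did 133 of all 151 cells. In P30_WT IHC number 15 they were 6 reads, and in number 11 they were 2.

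*Lgi4* (chr7:31059342-31070935, plus strand), the peripheral nerve ligand, had 323 reads (15.7 CPM) in P14_WT IHC number 33 and 656 reads (34.7 CPM) in P14_iOHC number 43, with 1 read in another cell of each group. In P14_iOHC number 43 the summed CPM of glia markers was 263, the fourth highest of that group, and in P14_WT IHC number 33 it was 0. Their part in the *Lgi4* reads was not tested. *Lgi4* shares 2059 exonic bases with *Fxyd3*, a regulator of the sodium pump encoded on the opposite strand, and the strand setting of the counting is not given in the sources used here. *Fxyd3* had 115 reads in P14_WT IHC number 33 and 7639 in P14_iOHC number 43, so reads on the shared bases cannot be told apart in these cells. P14_iOHC number 31 had 4780 *Fxyd3* reads and 1 *Lgi4* read. None of the 3 ADAM genes shares exonic bases with another annotated gene.

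Other ADAM genes set the members in their family. The table held 31 more, of which 20 encode the zinc-binding motif, 10 do not and 1, *Adam34l*, was not matched. Of the 20 with the motif, 6 were at 10 CPM or more in a group, namely *Adam8*, *Adam9*, *Adam10*, *Adam12*, *Adam15* and *Adam17*. *Adam10* and *Adam17* are the widespread sheddases, and they were at 15.7 ± 22.2 and 14.0 ± 26.4 CPM (SD, n = 55 cells) in P14_WT IHCs. Of the 10 without the motif, several of which are sperm surface proteins, 0 reached that level. *Adam11*, *Adam22* and *Adam23* were the 3 ADAM genes without the motif that averaged 10 CPM or more in a group. For *Adam11* the choice of the gene by its loss after P14 favoured this. *Adam23* averaged 7.36 CPM in P14_WT IHCs and passed 10 CPM only in P30_WT IHCs and P14_iOHCs.

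Between ages, 6 of the 31 passed the filter, 0 were lower past 4-fold and 2 were higher, where 3.06% and 2.26% of all tested genes were. *Adam9* went from 8.05 ± 18.7 CPM (SD, n = 55 cells) at P14 to 34.6 ± 50.9 CPM (SD, n = 50 cells) at P30, or 4.30-fold, with a log2 fold of 2.35 in the lower and 1.90 in the upper set. *Adam32*, the other one, is without the motif and had counts in 7 cells at P14 and 5 at P30. Its log2 fold of 2.06 was 1.74 without the highest cell of each group. In the lower set *Adam32* was at 1.05 CPM at P14 and had no read at P30, and in the upper set its log2 fold was 2.95.

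Between P14_iOHCs and P14_WT IHCs 6 of the 31 passed, with 1 lower and 1 higher past 4-fold, where 5.12% and 8.74% of all tested genes were. *Adam12*, a protease gene known from muscle development, went from 25.8 ± 40.9 CPM (SD, n = 55 cells) in P14_WT IHCs to 1.21 ± 4.56 CPM (SD, n = 46 cells) in P14_iOHCs. Its log2 fold of -4.41 was -5.75 in the lower set and -3.94 in the upper set, and it was at 24.9 CPM in P30_WT IHCs. *Adam8* was higher in P14_iOHCs, at 11.7 ± 23.6 CPM (SD, n = 46 cells) against 2.67 ± 13.4 CPM (SD, n = 55 cells), with counts in 16 and 4 cells. The log2 fold of *Adam8* was 2.13, and it was 3.33 without the highest cell of each group and 1.86 in the upper set, while no P14_WT IHC of the lower set had a read. *Adam12* passed the filter mainly through P14_WT IHCs and *Adam8* mainly through P14_iOHCs, so the filter favoured the direction of each call.

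Genes of the proteins that act with LGI and ADAM22 were taken as a list of 27, of which 16 passed the filter between ages. Past 4-fold, 1 was lower and 0 were higher at P30, beside 3.06% and 2.26% of all tested genes, and the median log2 fold was 0.03, beside -0.03 for all tested genes. That 1 gene was *Rtn4r*, the Nogo receptor gene, which had 5.47 ± 17.8 CPM (SD, n = 55 cells) at P14 and 0.118 ± 0.564 CPM (SD, n = 50 cells) at P30. *Rtn4r* counts were in 11 and 4 cells, so its log2 fold of -5.54 rested on few cells. It was -4.22 in the lower set and -6.65 in the upper set. *Rtn4r* passed the filter mainly through the P14 cells, so the filter favoured a lower call. The 4 MAGUK scaffold genes *Dlg1* to *Dlg4*, whose proteins bind the tail of ADAM22, all passed and were within 4-fold, as were the 6 genes of the 14-3-3 proteins, which bind ADAM22 inside the cell.

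In P14_iOHCs against P14_WT IHCs, 17 of the 27 passed, with 2 higher and 1 lower past 4-fold, beside 8.74% and 5.12% of all tested genes. Their median log2 fold was -0.01. The lower gene was *Cntnap2*, which encodes Caspr2, an adhesion protein that holds Kv1 channels at the juxtaparanodes of myelinated axons. *Cntnap2* was at 108 ± 80.8 CPM (SD, n = 55 cells) in P14_WT IHCs, 84.6 ± 63.3 CPM (SD, n = 50 cells) in P30_WT IHCs and 15.6 ± 34.3 CPM (SD, n = 46 cells) in P14_iOHCs. Counts were in 54 of 55, 46 of 50 and 17 of 46 cells. Its log2 fold of -2.79 in P14_iOHCs was -2.61 in the lower set and -2.86 in the upper set.

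Both higher genes encode Kv1 channel subunits, while *Kcnab1*, the other listed subunit gene that passed, was lower and within 4-fold. *Kcna2*, the pore subunit Kv1.2, had counts in 3 of 55 P14_WT IHCs and 21 of 46 P14_iOHCs, with means of 1.12 ± 7.18 and 10.3 ± 27.6 CPM (SD over those cells) and a log2 fold of 3.20. Of its 1154 reads in P14_WT IHCs 1115 lay in 1 cell, and without the highest cell of each group the log2 fold was 5.47. *Kcna2* passed the filter mainly through the P14_iOHCs, so the filter favoured a higher call. *Kcnab2*, an auxiliary beta subunit, had counts in 12 of 55 and 25 of 46 cells, with means of 1.45 ± 4.81 and 8.21 ± 13.6 CPM and a log2 fold of 2.50. Both were higher in each set of totals, by 4.71 and 2.73 for *Kcna2* and by 3.49 and 2.15 for *Kcnab2* on the log2 scale. Glia markers also differed between these groups, at a median of 42.1 CPM in P14_iOHCs and 0 in P14_WT IHCs, and their part was not tested. *Kcnab1* was at 312 ± 201 CPM (SD, n = 55 cells) in P14_WT IHCs and 141 ± 126 CPM (SD, n = 46 cells) in P14_iOHCs. Its log2 fold was -1.15, with counts in 55 of 55 and 45 of 46 cells. *Kcna1* and *Kcna4*, of the same list, had 0 reads in P14_WT IHCs.

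**Figure D4:**
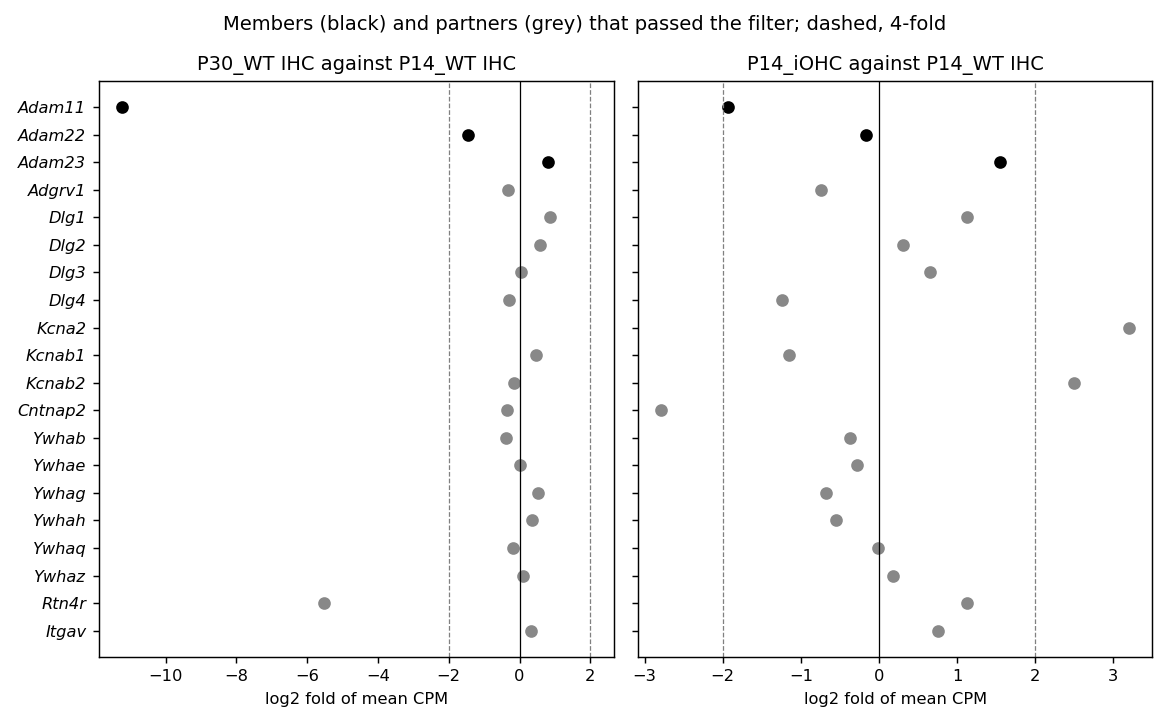
Log2 fold of mean CPM of the 3 ADAM members (black) and the listed partner genes (grey) that passed the filter, P30_WT IHC against P14_WT IHC on the left and P14_iOHC against P14_WT IHC on the right, with dashed lines at 4-fold and separate horizontal scales. *Adam11*, at -11.22, and *Rtn4r*, at -5.54, stand beyond 4-fold on the left. *Kcna2*, *Kcnab2* and *Cntnap2* stand beyond it on the right.

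Of the remaining partners, *Adgrv1*, a very large adhesion receptor of stereocilia that also carries EAR repeats, was at 49.5 ± 61.4 CPM (SD, n = 55 cells) in P14_WT IHCs. It was at 39.6 ± 54.2 CPM (SD, n = 50 cells) in P30_WT IHCs and 29.7 ± 44 CPM (SD, n = 46 cells) in P14_iOHCs. *Tspear*, another EAR repeat gene, was below 2.1 CPM on average in all groups. None of the 5 AMPA receptor genes, an auxiliary subunit included, through which LGI1 and ADAM22 act in the brain, passed the filter in either comparison. The adhesion gene *Cntn2* and the integrin gene *Itgb3* did not pass either, while the integrin gene *Itgav* passed and was within 4-fold in both.

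Across all 151 cells, the genes most like *Adam11* were those that also separated the groups. Likeness was Spearman's rho of CPM over 14782 genes, in which the cells share groups and sets of totals, and it is a description. The highest was *Slc34a3*, a sodium-phosphate cotransporter gene, with a rho of 0.651. *Slc34a3* was at 178 ± 156 CPM (SD, n = 55 cells) in P14_WT IHCs, 3.26 ± 18.5 CPM (SD, n = 50 cells) in P30_WT IHCs and 10.8 ± 38.2 CPM (SD, n = 46 cells) in P14_iOHCs, with counts in 54, 3 and 12 cells.

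The next 9 genes had a rho from 0.524 down to 0.477. They were *Rprm* (Reprimo, a mediator of cell cycle arrest), *Tmem191c*, *Pcp4l1*, the growth factor gene *Fgf8*, the Myc family gene *Mycl*, the ribonuclease gene *Ang4*, the cell cycle inhibitor gene *Cdkn1a*, the carbonic anhydrase gene *Car7* and the small GTPase gene *Arf5*. The tenth and the eleventh gene differed little, at 0.477 and 0.476. All 10 had a lower mean at P30 than at P14 in both sets of totals, and pooled the difference ran from a log2 fold of -0.95 for *Arf5* to -7.60 for *Fgf8* among the 9 with reads at P30. The choice of genes favoured this direction, since *Adam11* itself was picked for its loss at P30. *Ang4* had counts in 45 of 55 P14_WT IHCs and in 0 of 50 P30_WT IHCs, which by the limit of 3 cells allows a share of up to 6.00%.

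In P14_iOHCs these genes parted. *Rprm* was at 3.28 CPM there, against 585 CPM in P14_WT IHCs and 4.25 CPM in P30_WT IHCs, while *Car7* was at 1270 CPM, against 1202 and 344 CPM. *Fgf8* and *Mycl* were at 30.8 and 35.9 CPM in P14_iOHCs, between 134 and 60.6 CPM in P14_WT IHCs and 0.691 and 1.42 CPM in P30_WT IHCs. Within P14_WT IHCs alone the likeness was weaker, with a rho from -0.18 to 0.46 for the 10 genes, and none of them was among the 10 highest there. With Pearson's r of log2(CPM + 1), 7 of the 10 were again among the highest 10.

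**Figure D5:**
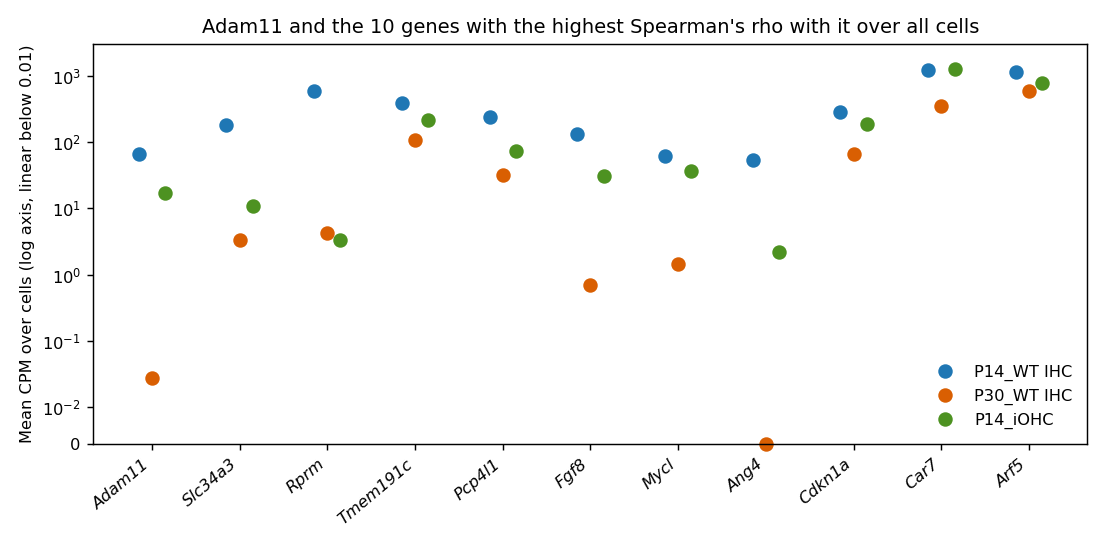
Mean CPM (logarithmic axis, linear below 0.01 CPM) of *Adam11* and the 10 genes with the highest Spearman's rho with it over 151 cells, for P14_WT IHCs, P30_WT IHCs and P14_iOHCs. P30_WT IHCs are below P14_WT IHCs for all 11 genes, a direction that the choice of genes favoured. P14_iOHCs range from the P30 level (*Rprm*) to the P14_WT level (*Car7*).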

How the data were processed

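Single hair cells were picked by hand, their cDNA was amplified with a Smart-Seq HT kit, and the authors aligned reads to mm10 (GRCm38) and counted them per gene. The submitters' processing notes name FastQC 0.11.9, Trimmomatic 0.39, HISAT2 2.1.0, StringTie 1.3.5 and HTSeq 0.10.0. The deposited values are raw counts for 55291 genes in 151 cells, grouped by the labels. The annotation release, the strand setting and how multi-mapping reads were counted are not given in the sources used here.

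CPM is a count over the cell's total, times 1000000. Total counts and the sets of totals are given in the results. Groups were compared by the fold of the mean CPM over cells, called past 4-fold, among genes of which 10 or more of the compared cells held 5 counts or more. A group mean of 0 was set to 3 counts over the group. No test was made, since each library is 1 cell and no animal is named. The calculation was tested on simulated data, in which genes were changed far past 4-fold, low-level genes were left out and the filter was not applied. That test does not cover folds near 4-fold or genes with few counts. Exact intervals are at the 95% level. Thinned values use the lowest total of all cells.

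The members, the partner list and the marker lists were chosen with earlier results of these data known. Named genes are the 7 members, other ADAM genes by motif (named at a mean of 10 CPM or more, or past 4-fold), 27 partner genes (named past 4-fold, otherwise mostly counted) and the 10 genes with the highest rho with *Adam11*. Of the genes in the table, 53186 matched 1 GENCODE M21 identifier. The motif was to be read from RefSeq proteins, which were not used here, and was searched in frame in GENCODE M21 coding sequences, aligned with BLOSUM62 (gap penalties 11 and 1, Biopython 1.88). Marker lists for neurons, glia, supporting cells, fibroblasts, blood and immune cells were summed per cell. Fibroblast markers had medians of 86.6, 78.2 and 116 CPM in P14_WT IHCs, P30_WT IHCs and P14_iOHCs, neuron markers 363, 419 and 286, blood markers 0, 6.88 and 0, and immune markers 0 in each. Summed OHC markers had medians of 869, 416 and 45445 CPM, IHC markers 20837, 19819 and 2007, and general hair cell markers 2637, 3518 and 2363.

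Alternatives were TMM factors (edgeR 4.0.16) and DESeq2 1.42.0 size factors, totals without mitochondrial genes, summed counts, medians, thinning, other thresholds and filters, and subsets of cells. Python 3.11.15 with numpy 2.4.6, pandas 2.3.3, scipy 1.17.1 and matplotlib 3.10.9, and R 4.3.3, were used.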

Additional observations from a re-analysis of the deposited data

How the results depend on the processing

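Of 287 recomputed values for 42 results, 239 stayed and 48 moved. Folds stayed if on their side of 4-fold and within the SD between cells of log2(CPM + 1). Levels stayed if within the SD between cells, and shares if within the exact interval. Counts stayed if within a set ratio, and ranks if unchanged. Changes of sign were recorded only for called folds, here *Adam11* between ages, and were 0. Smaller folds of *Adam22* and *Adam23* changed sign in some settings and still counted as staying. No paired analysis was possible because no result comes from a test and cell numbers only name cells. Shares of cells within the sets of totals, folds within a set without its highest cell, and the comparison without the P14_iOHC with IHC-level markers, were chosen after seeing the data. The causes were not tested.

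Between ages, the log2 fold of *Adam22* was -2.48 in the lower set of totals and -2.22 with medians, and that of *Adam23* was 2.57 in the upper set. Members lower were 2 in the lower set and 2 at a 2-fold threshold, and 1 was higher in the upper set. Over all genes tested, 1186 of 7327 were lower with medians, 1341 at 2-fold and 3918 of 24534 without a filter, and 1143 were higher at 2-fold and 3362 without a filter, against 396 and 292 of 12946. *Adam11* has no fold of medians, since its median was 0 in P30_WT IHCs and in P14_iOHCs.

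For P14_iOHCs against P14_WT IHCs, the log2 fold of *Adam11* was -5.65 in the lower set, -2.72 without cells high in glia markers and -2.61 without the highest cell of each group, and that of *Adam23* was 3.12 in the upper set and 5.78 with medians. In each of those 3 settings, and at 2-fold, 1 member was lower, and 1 was higher in the upper set and at 2-fold. Over all genes tested, 465 of 8542 were lower and 339 higher in the lower set, 1080 and 491 of 11760 without cells high in glia markers, 1809 and 2517 at 2-fold, and 4099 and 5128 of 25330 without a filter, against 700 and 1195 of 13673. Higher genes were 580 of 11843 without cells high in supporting-cell markers and 466 of 7375 with medians.

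Shares of cells with a count moved to 100% for *Adam11* in P14_WT IHCs of the lower set. For *Adam23* they moved to 32.7% with at least 3 counts, 40% after thinning and 43.8% in the lower set in P14_WT IHCs, to 46%, 50%, 56.5% in the lower set and 85.2% in the upper set in P30_WT IHCs, and to 41.7% in the lower set in P14_iOHCs. By rank of level, *Adam11* was 2 and *Adam22* 1 in P14_WT IHCs without a length, and *Adam11* was 3 and *Adam23* 2 in P14_iOHCs without a length and with coding length. Of the 10 genes most like *Adam11*, 0 were shared with the 10 highest in P14_WT IHCs alone.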
